A study of Mus musculus with 18 samples.

Results

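Genes that hold oligodendrocyte progenitors in the undifferentiated state are described here, namely Id1, Id2, Id3, Id4, Hes1, Hes5, Hey1, Sox2, Sox5 and Sox6. They were chosen by gene name from the deposited expression table, which gave 10 of 38046 genes, and 8 of the 10 passed the filter used for testing. Oligodendrocyte progenitor cells (OPCs) had been derived from mouse primary neural stem cells and kept as clonal lines, 3 control clones (D7, D3 and E8) and 3 clones null for Thap1 (3F, D6 and 7F). Thap1 encodes a zinc-finger transcription factor of the THAP family. Each clone gave 1 total RNA-seq library as OPCs in growth medium with PDGF-AA, 1 after 2 days (DIV2) and 1 after 4 days (DIV4) in differentiation medium with thyroid hormone T3 at 40 µg/ml, which is 18 libraries in 6 groups of 3. A clone is a line grown from a single cell, and clones are the replicates. Each p-value rests on the spread between clones within groups, with 1 estimate per gene shared by all 6 groups of both genotypes. The stages of a clone were treated as independent, except where a term for clone was added, which measures changes within clones. How the null clones were made, and whether clones shared an animal, is not given in the sources used here.

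The ID proteins are helix-loop-helix proteins without a DNA-binding region. They bind the E proteins (Tcf3, Tcf4 and Tcf12) and so keep them from pairing with lineage factors such as OLIG1 and OLIG2, and their genes are classical targets of bone morphogenetic protein (BMP) signalling through SMAD factors. HES1, HES5 and HEY1 are bHLH repressors induced by Notch receptors through the DNA-binding protein RBPJ. SOX5 and SOX6 are SoxD factors that oppose SOX9 and SOX10 at myelin genes, and SOX2 is a SoxB1 factor of stem and progenitor cells.

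Values were deposited as TPM, a share of transcripts corrected for length. They were summed by gene and divided by a size factor per library, because Gm15662, Gm26924 and mmu-mir-6236, all 3 of them noncoding, took 64.8 to 88.0% of the TPM in the control OPC libraries, 34.8% in the OPC library of null clone D6 and 0.359 to 3.17% in the others. The resulting values are called rescaled TPM. In deposited TPM the median gene of control clones stood 1.96 (DIV2) and 2.01 (DIV4) log2 units above OPC, against 0.07 and 0.06 after rescaling. Log2 changes of members and of called genes are therefore also given in deposited TPM where the direction differs. Medians over the lists of other genes and changes of other genes that were not called are given in rescaled TPM only. Protein-coding Thap1 transcripts were at 1.96 to 4.42 rescaled TPM in the control libraries and at 0.199 to 0.785 in the null libraries, and so separated the genotypes in all 18. All Thap1 transcripts summed gave 3.82 to 7.99 and 5.27 to 12.1, because an annotated retained-intron transcript was higher in null libraries (4.81 to 11.3 against 0.739 to 3.86). All 9 tested oligodendrocyte markers rose in control clones by DIV4 (16.6% of all genes) and 7 of 9 in null clones (17.1%). At DIV4, 1 of the 9 was called lower in null than in control clones (1.77% of all genes), and 2 were in deposited TPM (1.88%). Of 10 cell-cycle genes tested, 8 fell in control clones (14.9% of all genes) and 10 in null clones (15.9%) by DIV4. In control clones 6 of those 8 were above OPC in deposited TPM. The OPC library of control clone D3 stood apart before any differentiation, with Mki67, a proliferation marker, at 1.45 rescaled TPM against 25.1 and 29.0 in the other control OPC libraries. It also had more RNA of the listed oligodendrocyte markers, with a sum of 788 rescaled TPM against 314 (D7) and 112 (E8). Mbp, the myelin basic protein gene, was at 89.2 there against 6.93 (D7) and 4.13 (E8).

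In control OPCs the mean levels ran from Sox2 (95.5 rescaled TPM) through Id3 (47.3), Id2 (39.8), Sox6 (29.9), Hes5 (23.3), Hey1 (5.31), Id4 (4.36), Id1 (2.46) and Hes1 (1.67) to Sox5 (0.305). Rescaled TPM is a level per transcript length, which allows this ordering between genes. Sox2 stood above every other member in 2 of the 3 clones, but in clone D3 Id3 reached 118 rescaled TPM against 105 for Sox2. The SDs of Id3 (61.8) and Hes5 (24.7) exceeded their means, so the places of Id3, Id2, Sox6 and Hes5 in this order were not separated beyond the spread between clones. Hes1 and Sox5 averaged under 1 rescaled TPM over all libraries and did not pass the filter.

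**Figure D1:**
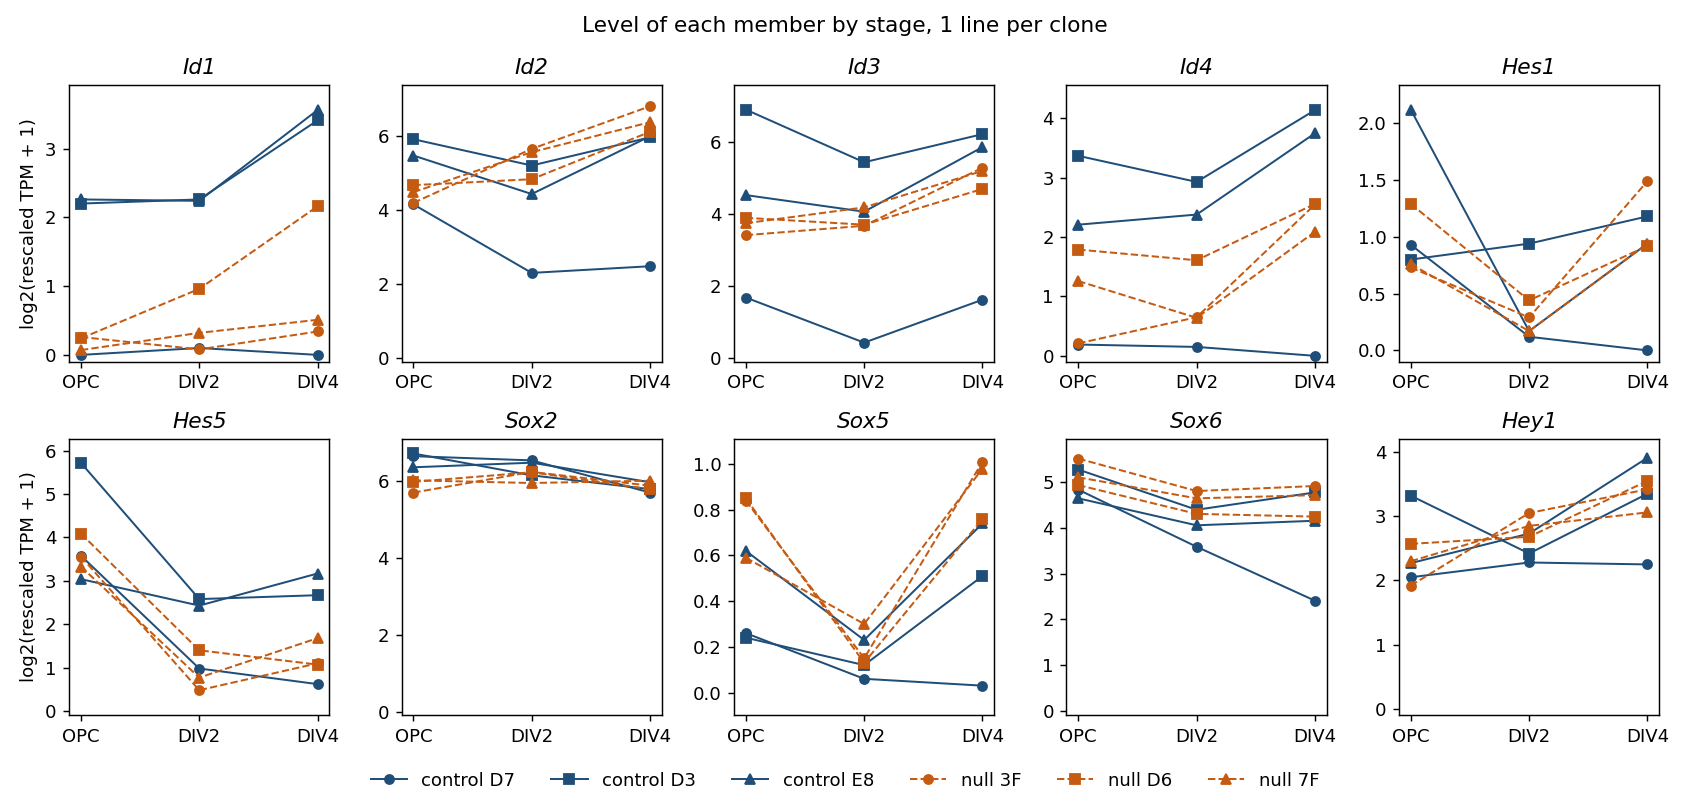
Level of each of the 10 members at OPC, DIV2 and DIV4 on the vertical axis as log2(rescaled TPM + 1), with 1 line per clone (solid blue, control; dashed orange, Thap1 null). Hes5 drops from OPC to DIV2 in all 6 clones on this scale (the control mean is 0.06 higher at DIV2 in deposited TPM), Sox2 varies little between clones, and the Id genes of control clone D7 lie below those of the other 2 control clones at DIV2 and DIV4.

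Members called lower or higher over time are given here beside the share of all genes. Of the 8 tested members, Hes5 alone fell in control clones from OPC to DIV2 (adjusted p under 0.05, limma), where 15.4% of all 12439 genes tested fell. By DIV4, Hes5 and Sox2 had fallen in control clones, against 14.9% of all genes. In null clones Hes5 alone fell, by DIV2 (12.6% of all genes) and by DIV4 (15.9%). Hey1 alone rose, in null clones by DIV4, where 17.1% of all genes rose. No member rose in control clones by DIV2 or DIV4, or in null clones by DIV2, in limma's test, and none did at an unadjusted p under 0.05 either; 19.2%, 16.6% and 14.9% of all genes rose in these comparisons. Between DIV2 and DIV4 no member was called in either genotype, against 0.249% of all genes in control and 1.68% in null clones, and at an unadjusted p under 0.05 the count was 1 in control clones (Sox2, lower) and 0 in null clones. With 8 members tested, these counts lie near the background and are no result about the set.

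The median log2 change of the 8 members was -0.55 by DIV2 and -0.09 by DIV4 in control clones, beside 0.07 and 0.06 over all genes. In null clones it was 0.20 and 0.95, beside 0.00 and 0.01. The signs differed between genotypes in rescaled TPM only: in deposited TPM the medians were 1.36 and 2.32 in control and 0.46 and 1.27 in null clones. In deposited TPM none of the 8 was called lower in control clones at DIV2 (0.558% of all genes were) or at DIV4 (0.225%). On that scale Sox2, Sox6 and Hey1 were called higher at DIV2, with 83.1% of all genes, and Id1, Id2, Id4, Sox2 and Hey1 at DIV4, with 87.9%. When each clone was compared with itself, by a term for clone in the model, 4 members fell in control clones by DIV2 (Id2, Id3, Hes5 and Sox6, against 17.1% of genes) and 3 by DIV4 (Hes5, Sox2 and Sox6, against 16.4%). In null clones the same term gave 4 members that rose by DIV4 (Id2, Id3, Id4 and Hey1, against 19.3% of genes). With only the libraries compared, so that control clones did not enter, 4 members rose in null clones by DIV4 (22.3% of genes). By DIV2 it was 1 (17.7%), and from DIV2 to DIV4 it was 2 (7.14%). In control clones that setting called 0 members in either direction by DIV2 or DIV4.

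**Figure D2:**
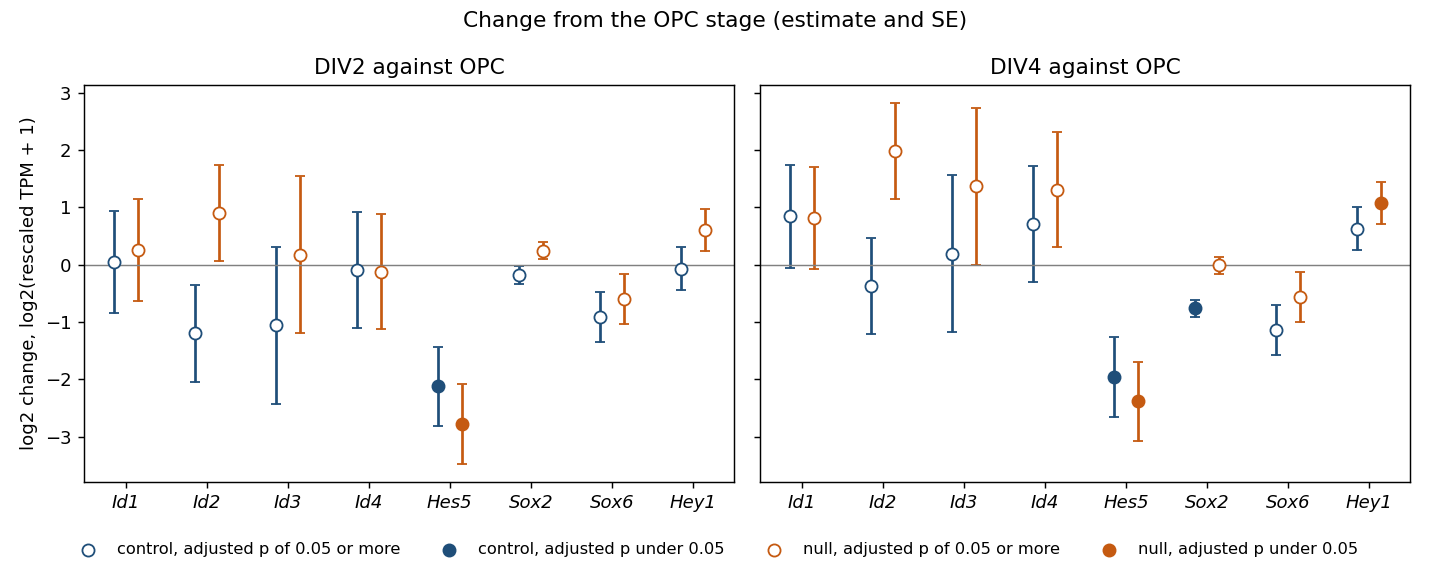
Log2 change from OPC to DIV2 and to DIV4 for the 8 tested members in control and null clones, on log2(rescaled TPM + 1). Points are estimates from 3 clones per group, with standard errors from the spread shared by all 6 groups. Filled points have an adjusted p under 0.05. Hes5 is the member with filled points below 0 in both genotypes at both times; in deposited TPM its control values are 0.06 and 0.36.

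Hes5, the Notch effector of neural progenitors, showed the clearest fall of the set. It was at 11, 51.8 and 7.22 rescaled TPM in control OPCs of D7, D3 and E8, at 0.966, 5 and 4.4 at DIV2, and at 0.535, 5.36 and 7.98 at DIV4. Null OPCs (in the order 3F, D6, 7F, kept below) were at 10.8, 16.1 and 9.04, and the levels of these clones were 0.391, 1.64 and 0.699 at DIV2, and 1.15, 1.1 and 2.2 at DIV4. OPC and differentiated libraries did not overlap in null clones at either time, nor in control clones at DIV2, but at DIV4 control clone E8 was slightly above its own OPC level. The log2 change was -2.12 (SE 0.69, adjusted p = 0.0285) by DIV2 and -1.96 (SE 0.69, adjusted p = 0.043) by DIV4 in control clones, but 0.06 and 0.36 in deposited TPM. In null clones it was -2.78 (SE 0.69, adjusted p = 0.008) by DIV2 and -2.38 (SE 0.69, adjusted p = 0.0162) by DIV4, and it stayed below 0 in deposited TPM at -2.60 and -2.10. Clone by clone, Hes5 was lower than in OPCs in 5 of 6 clones at DIV2 and at DIV4 even in deposited TPM, E8 being the exception. Bulk RNA cannot tell fewer cells that express a gene from less RNA of it per cell, for Hes5 or any other member.

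These calls of Hes5 rested on few clones. In control clones the change by DIV2 was -1.87 (adjusted p = 0.0555) without D7 and -1.61 (0.0923) without D3, and -1.31 (0.116) without the OPC library of D3 alone. Leaving out null clone 3F, D6 or 7F, which kept the control estimate and changed only the shared spread, gave adjusted p-values of 0.0573, 0.0526 and 0.0594. By DIV4 the control change was -1.46 (0.139) without D7, -1.42 (0.138) without D3 and -1.16 (0.168) without the D3 OPC library, and its adjusted p was 0.0795, 0.074 and 0.0829 without 3F, D6 and 7F and 0.0506 without the OPC library of D6. In null clones the adjusted p of Hes5 by DIV2 was 0.093, 0.0617 and 0.0648 without 3F, D6 and 7F. By DIV4 it was 0.103, 0.149 and 0.0669, and 0.0598 without the OPC library of D6. The direction of Hes5 in rescaled TPM was the same in each of these.

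Hes5 lies at chr4:154960923-154962371 on the plus strand of GRCm38 and overlaps the antisense gene Gm20421, with 25.7% of its 31-base stretches shared with other genes. Reads of the pair cannot be told apart unless strand was used in counting, which is not given in the sources used here; Gm20421 averaged 0.299 rescaled TPM. The 250 bases before the Hes5 start are shown because Notch acts on this promoter through RBPJ; they are from RefSeq on GRCm38.p6, chr4:154960673-154960922, plus strand, with capitals marking the RBPJ core TGGGAA on either strand.
Hes5: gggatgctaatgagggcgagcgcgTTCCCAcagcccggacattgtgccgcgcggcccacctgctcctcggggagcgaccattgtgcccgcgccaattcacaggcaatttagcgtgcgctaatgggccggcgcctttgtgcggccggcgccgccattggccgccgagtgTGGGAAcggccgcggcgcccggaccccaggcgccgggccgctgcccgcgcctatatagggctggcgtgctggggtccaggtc
The 2 matches begin 226 bases (reverse strand) and 82 bases (forward strand) before the start. Of 32851 RefSeq promoter windows of 250 bases, 21.6% held TGGGAA on either strand. Among the 7 members with a window in the table, Hes5 and Id4 held it. A match of letters describes the sequence and not binding.

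Hes1, the other classical Notch effector of the set, was low throughout. It was at 0.907, 0.739 and 3.36 rescaled TPM in control OPCs and 0.663, 1.45 and 0.692 in null OPCs, and at 0.0833, 0.913 and 0.123 (control) and 0.224, 0.359 and 0.121 (null) at DIV2. It was lower at DIV2 than at OPC in 5 of 6 clones, D3 being the exception, and the count was the same in deposited TPM. At DIV4 it was at 0, 1.27 and 0.914 in control clones and at 1.81, 0.894 and 0.922 in null clones, so 2 of 3 null clones and 1 of 3 control clones ended above their OPC level (5 of the 6 clones in deposited TPM). In a fit without the filter, the log2 change by DIV2 was -0.88 (adjusted p = 0.214) in control and -0.63 (adjusted p = 0.457) in null clones. In deposited TPM the control mean of Hes1 was 0.321 in OPCs and 0.621 at DIV2. Only 62.6% of Hes1 rescaled TPM came from its protein-coding transcript.

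Hey1, a related repressor that also answers to Notch, moved the opposite way to Hes5 in null clones. It was at 2.77, 4.93 and 3.93 rescaled TPM in null OPCs, 7.27, 5.40 and 6.23 at DIV2 and 9.74, 10.7 and 7.33 at DIV4. The null libraries of DIV2 and DIV4 all lay above all null OPC libraries. The change by DIV4 was 1.08 log2 units (SE 0.37, adjusted p = 0.0357) in null clones and 1.51 in deposited TPM. The call ended without any 1 null clone, with adjusted p = 0.241 without 3F, 0.135 without D6 and 0.114 without 7F. In control clones Hey1 was at 3.14, 8.96 and 3.83 in OPCs, 3.87, 4.35 and 5.65 at DIV2 and 3.77, 9.21 and 14.0 at DIV4. Each of the 6 clones was higher at DIV4 than at OPC, in rescaled and in deposited TPM, though D7 and D3 differed little between these stages, and the control change by DIV4 was 0.63 (SE 0.37, adjusted p = 0.214). Without the OPC library of D3 it was 1.01 (adjusted p = 0.0391). By DIV2 the control value was -0.07, against 1.82 in deposited TPM.

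Of 24 other genes listed for the Notch pathway, 16 were tested. By DIV4, 1 rose and 4 fell in control clones, where 16.6% of all genes rose and 14.9% fell, and 2 rose and 2 fell in null clones (17.1% and 15.9%). The median change of the 16 was -0.05 and 0.26. In deposited TPM 15 rose and 0 fell in control clones (87.9% and 0.225% of all genes). On that scale 2 rose and 1 fell in null clones (18.2% and 4.42%). Dll1, a Notch ligand, changed by -1.17 (adjusted p = 0.0114) in control clones, where deposited TPM gave 1.33, and by -2.30 (adjusted p = 0.0001) in null clones. Without D7 the control change was -1.02 (adjusted p = 0.0763). At DIV2 the null minus control difference of Dll1 was -1.27 (adjusted p = 0.0411), where 2.68% of all genes were called. In deposited TPM it was -1.48 and not called. Dtx1, a regulator of Notch trafficking, changed by -0.62 in control clones (1.73 in deposited TPM; -0.41, adjusted p = 0.143, without D7). In null clones the value for Dtx1 was 0.49 (adjusted p = 0.0425), which did not hold with the clone term (0.0501), without 3F, D6 or 7F (0.20, 0.155 and 0.199) or without the OPC library of D6 (0.0716). The change of Dtx1 by DIV4 was 1.11 larger in null clones (adjusted p = 0.0346), but -0.84 in deposited TPM. Its null minus control difference in OPCs was -1.02 (adjusted p = 0.00249), but 0.74 in deposited TPM. Both comparisons use the control OPC libraries. Hey2, the closest relative of Hey1, was chosen after its values were seen. It was at 0.322, 2.19 and 0.376 rescaled TPM in control OPCs and 1.48, 4.74 and 2.41 at DIV4. In null clones it went from 0.441, 0.843 and 0.293 to 13.2, 9.85 and 13. Its DIV4 levels did not overlap between genotypes, and 14.4% of all genes were likewise higher in null clones without overlap. Hey2 was 1.83 log2 units higher in null clones at DIV4 (adjusted p = 0.00792). Its change by DIV4 was 2.08 larger there (SE 0.49, adjusted p = 0.0402), with 1.72 and 1.46 in deposited TPM. The DIV4 difference of Hey2 had adjusted p = 0.0893 without 3F and 0.094 without 7F. The difference of its changes had adjusted p = 0.0511 without D7, 0.0901 without E8, 0.191 without 3F, 0.0971 without D6, 0.297 without 7F and 0.051 without the OPC library of D6.

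The 4 Id genes did not pass the test from OPC to DIV2 or DIV4 in either genotype. They differed widely between control clones, and this spread also enters the test of the null clones. Id2, the most abundant over the series, was at 16.8, 59.3 and 43.3 rescaled TPM in control OPCs, 3.93, 35.7 and 20.6 at DIV2, and 4.57, 61.4 and 62.4 at DIV4. In null clones it was at 17.2, 24.4 and 21.3, then 49.3, 27.5 and 46.2, then 111, 68.0 and 81.6. All 3 control clones were thus lower at DIV2 than at OPC and all 3 null clones higher, while in deposited TPM all 6 clones were higher. The change by DIV2 was -1.20 (SE 0.84, adjusted p = 0.288) in control clones (1.31 in deposited TPM) and 0.90 (adjusted p = 0.467) in null clones, and by DIV4 it was -0.37 (2.24 in deposited TPM) and 1.98 (SE 0.84, adjusted p = 0.0841). With the clone term Id2 was called lower in control clones by DIV2 (adjusted p = 0.0254) and higher in null clones by DIV4 (adjusted p = 0.0021). Without control D7, Id2 in null clones had adjusted p = 0.0247 by DIV2 and 0.000221 by DIV4.

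Id3 followed a similar course. It was at 2.20, 118 and 22.0 rescaled TPM in control OPCs, 0.346, 42.1 and 15.7 at DIV2 and 2.07, 73.0 and 56.5 at DIV4. The null clones had 9.65, 13.8 and 12.4, then 11.8, 12 and 17.1, then 37.8, 24.9 and 35.6. Both Id2 and Id3 were higher at DIV4 than at DIV2 in 6 of 6 clones (Id2 in 5 of 6 in deposited TPM). Null DIV4 libraries of Id3 lay above all null OPC libraries, while control libraries overlapped between stages over a range set by D7 and D3. The change by DIV4 was 0.19 (adjusted p = 0.933) in control and 1.37 (SE 1.37, adjusted p = 0.477) in null clones; with the clone term the null rise had adjusted p = 0.00596, and the control value by DIV2, -1.06, had adjusted p = 0.0208 (1.12 in deposited TPM). Protein-coding Id3 made up 79% of its rescaled TPM and a retained-intron transcript 15.9%.

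Id4 and Id1 were less abundant. Id4 was at 0.144, 9.32 and 3.62 rescaled TPM in control OPCs, 0.113, 6.61 and 4.21 at DIV2 and 0, 16.7 and 12.5 at DIV4. In null clones it was at 0.154, 2.47 and 1.40, then 0.574, 2.04 and 0.555, then 4.84, 4.88 and 3.26. The null rise by DIV4, 1.31 (SE 1.01, adjusted p = 0.348), had adjusted p = 0.0172 with the clone term and 0.0297 without control D7. Id1, the Id gene most used as a BMP readout, was at 0, 3.59 and 3.79 in control OPCs and 0, 9.65 and 10.8 at DIV4, while the null clones went from 0.199, 0.182 and 0.0472 in OPCs to 0.269, 3.48 and 0.420 at DIV4. It was listed at 0 in both of those D7 libraries, and TPM keeps no depth from which a detection limit could be set. Among the members, Id1, Id2, Id3, Id4 and Hey1 were the 5 whose null DIV4 libraries all lay above all null OPC libraries, a pattern met by 29.0% of all genes. At DIV2 Id2 and Hey1 were the 2, against 26.6%.

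Id4 lies at chr13:48261228-48266026 on the plus strand of GRCm38. The 250 bases before its RefSeq start (GRCm38.p6, chr13:48260866-48261115, plus strand) are shown because SMAD factors, which carry BMP signals, bind GC-rich elements in Id promoters; capitals mark GGCGCC, a sequence that reads the same on both strands.
Id4: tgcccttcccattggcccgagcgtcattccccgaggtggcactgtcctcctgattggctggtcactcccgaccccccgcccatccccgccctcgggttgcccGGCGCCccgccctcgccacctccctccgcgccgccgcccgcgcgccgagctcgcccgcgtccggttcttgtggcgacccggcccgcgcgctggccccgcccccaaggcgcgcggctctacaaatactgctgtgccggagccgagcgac
The match begins 148 bases before the start. Of the 32851 windows, 9.59% held GGCGCC, and Id2, Id4 and Hes5 did among the 7 members with a window, Hes5 with 4 matches that do not overlap its TGGGAA matches. Id2 and Id3 are named without sequence because their windows overlap annotated exons of these genes themselves; the Hes5 window above overlaps an exon of the antisense gene Gm20421.

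Of 18 genes listed for the BMP pathway, 9 were tested. By DIV4 1 rose and 1 fell in control clones, where 16.6% of all genes rose and 14.9% fell. In null clones 0 rose and 1 fell (17.1% and 15.9% of all genes). The medians were -0.05 and 0.32. In deposited TPM it was 8 and 0 in control clones (87.9% and 0.225% of all genes) and 1 and 0 in null clones (18.2% and 4.42%). Bmp7, a ligand, fell in both, by 1.15 log2 units in control clones (1.29 higher in deposited TPM) and by 1.36 in null clones. The Bmp7 call ended in control clones without D7 (-0.85, adjusted p = 0.217) or E8 (-1.07, 0.0847) and in null clones without 3F (-1.14, 0.0983). Smad7, an inhibitory SMAD chosen after its values were seen, was at 0.455, 1.36 and 0.462 rescaled TPM in control OPCs and 30.9, 4.79 and 3.39 at DIV4. It rose by 2.45 log2 units in control clones (adjusted p = 0.0034), and by 1.44 (adjusted p = 0.00767) without D7, its highest clone at DIV4. In null clones Smad7 was at 0.564, 0.34 and 0.725 in OPCs and 1.27, 2.45 and 1.69 at DIV4, a change that was not called. Bmp4, a ligand also chosen after its values were seen, was at 0.21, 0.722 and 0.708 in null OPCs. In these clones it was at 7.14, 6.31 and 7.29 at DIV2 and at 2.95, 1.2 and 2.79 at DIV4. The null rise by DIV2 was 2.37 (adjusted p = 0.00907) and missed the threshold without 3F, D6 or 7F (0.105, 0.0581 and 0.0775). Control clones had Bmp4 at 0.691, 7.15 and 1.69 in OPCs, 0.179, 5.32 and 0.313 at DIV2, and 0.945, 2.77 and 0.979 at DIV4.

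Astrocyte genes and Fabp7, listed with the stem-cell genes, differed between clones beside the Id genes. At DIV4 Gfap, the astrocyte filament gene, was at 0.176, 100 and 235 rescaled TPM in control clones D7, D3 and E8 and at 84.9, 80.0 and 139 in null clones. Fabp7, a lipid-binding protein of radial glia and progenitors, was at 20.1, 202 and 387 in control and 30.5, 60.4 and 47.1 in null clones, and Slc1a3, a glutamate transporter of astrocytes, at 0.473, 26.8 and 74.6 and at 3.42, 9.11 and 6.44. Control D7 was lowest in each of these and in all 4 Id genes, and highest in Mbp, the myelin basic protein gene, with 4772 rescaled TPM against 908 and 657 in D3 and E8 and 92.3, 574 and 126 in null clones. The summed level of the 10 listed astrocyte genes at DIV4 ranged from 16.1 to 502 in control and from 207 to 303 in null clones. By DIV4, 3 of 6 tested rose in null clones (17.1% of all genes) and 2 of 6 in control clones (16.6%). Other astrocyte genes varied too. At DIV4 Aqp4, a water channel, was at 0.1, 3 and 6.63 in control and 0.138, 0.163 and 0.2 in null clones, Slc1a2, a glutamate transporter, at 0.117, 30.5 and 31 and at 3.82, 7.04 and 2.65, and Aldoc, a glycolytic enzyme, at 11.2, 72.6 and 140 and at 185, 95.2 and 144. The connexin genes Gja1 and Gjb6 were at or near 0 in all libraries (at most 0.101 and 0.0421 rescaled TPM). Over time neither Fabp7 nor Slc1a3 rose with the Id genes in null clones. The change of Fabp7 there by DIV4 was -3.39 (adjusted p = 0.011), and -2.95 in deposited TPM. Slc1a3 went from 9.28, 10.8 and 9.39 rescaled TPM in null OPCs to 3.42, 9.11 and 6.44 at DIV4, a change that was not called. The part of astrocyte or stem-cell genes in the Id levels was not tested.

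**Figure D3:**
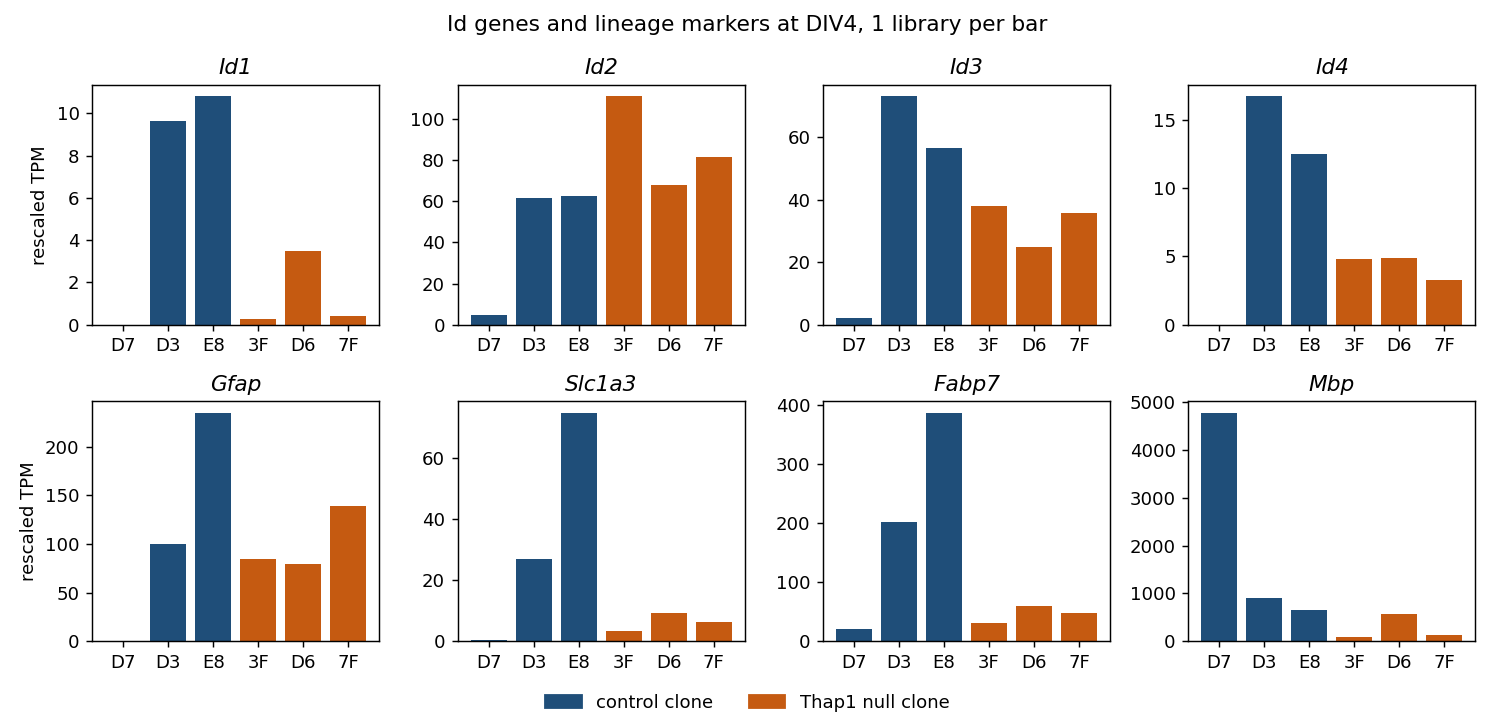
Rescaled TPM at DIV4 in each of the 6 clones (1 bar per library, axes from 0) for Id1 to Id4, Gfap, Slc1a3, Fabp7 and Mbp. Control clone D7 has the lowest bar in all 4 Id genes and the highest in Mbp.

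Sox2 was the most evenly expressed member. It was at 99.9, 105 and 81.7 rescaled TPM in control OPCs, 92.6, 70.6 and 89.0 at DIV2 and 51.2, 54.8 and 61.9 at DIV4. Every control DIV4 library lay below every control OPC and DIV2 library. Sox2 was the only member whose control DIV4 and OPC levels did not overlap, where 14.4% of all genes were lower without overlap. Between DIV2 and DIV4, 9.08% of all genes were lower without overlap in control clones. The change by DIV4 was -0.76 (SE 0.15, adjusted p = 0.00207), but 1.93 in deposited TPM, and -0.06 (adjusted p = 0.793) when libraries were scaled to protein-coding transcripts. From DIV2 to DIV4 the control change was -0.57 (adjusted p = 0.138). Null clones began lower, at 51.4, 62.7 and 64.4 in OPCs, and were at 74.9, 74.6 and 61.2 at DIV2 and 58.2, 54.7 and 63.7 at DIV4, a change by DIV4 of -0.01 (adjusted p = 0.967; 0.44 in deposited TPM). By DIV4 the genotypes overlapped, at 56 ± 5.48 (control) and 58.9 ± 4.55 (null; SD, n = 3). Sox2 (chr3:34650405-34652461, plus strand, GRCm38) has a single exon and lies within the noncoding gene Sox2ot on the same strand, which averaged 37.2 rescaled TPM; 0.888% of the 31-base stretches of Sox2 are shared with other genes.

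Sox6 was lower after differentiation in every clone but did not pass the test. In control clones it was at 27.7, 37.9 and 24.1 rescaled TPM in OPCs, 11, 20.1 and 15.7 at DIV2, and 4.3, 26.4 and 16.9 at DIV4. In null clones it was at 45, 29.8 and 33.6, then 27.1, 18.8 and 24.0, then 29.3, 18.1 and 25.3. All 12 differentiated libraries were below the OPC library of their own clone, though control D3 at DIV4 lay above E8 in OPCs; in deposited TPM 1 of 6 clones was below its OPC level at DIV2 and 2 of 6 at DIV4. The log2 change was -0.91 (SE 0.44, adjusted p = 0.127) by DIV2 and -1.14 (SE 0.44, adjusted p = 0.0618) by DIV4 in control clones (1.58 and 1.42 in deposited TPM), and -0.60 (adjusted p = 0.343) and -0.56 (adjusted p = 0.357) in null clones. With the clone term the control values had adjusted p = 0.0403 and 0.0172, and without control D3 the change by DIV4 was -1.46 (adjusted p = 0.0257). OPC libraries lay above all libraries of DIV2 for Hes5 and Sox6 in both genotypes, where 18.5% (control) and 23.7% (null) of all genes did the same, and for the same 2 members at DIV4 in null clones, against 26.0% of genes.

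Sox5, the partner of Sox6, was near the bottom of the measured range. Control OPCs had 0.197, 0.177 and 0.541 rescaled TPM of it, and null OPCs 0.792, 0.806 and 0.509. At DIV2 it was at 0.0422, 0.0846 and 0.177 (control) and 0.112, 0.0919 and 0.229 (null), lower in 6 of 6 clones (4 of 6 in deposited TPM), and at DIV4 at 0.0206, 0.425 and 0.666 (control) and 1.01, 0.696 and 0.973 (null). In the fit without the filter the null change by DIV2 was -0.57 (SE 0.17, adjusted p = 0.0596), and the control change was -0.24 (adjusted p = 0.56). In deposited TPM the control mean of Sox5 was 0.0629 in OPCs and 0.155 at DIV2. Of 12 other Sox genes listed, 9 were tested. By DIV4 0 rose and 2 fell in control clones (16.6% and 14.9% of all genes). In null clones 2 rose and 2 fell (17.1% and 15.9%). The medians were -0.46 and 0.16. In deposited TPM it was 7 and 0 in control clones (87.9% and 0.225% of all genes) and 1 and 1 in null clones (18.2% and 4.42%). Sox11, a SoxC factor of immature neural cells, fell in both, by 1.35 log2 units in control clones (1.0 higher in deposited TPM) and by 0.88 in null clones; the null call ended without 3F, D6 or 7F (adjusted p = 0.119, 0.118 and 0.072) or the OPC library of D6 (0.052).

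Comparison of the genotypes at each stage asks whether loss of Thap1 leaves these regulators at other levels. Sox2 alone was called in OPCs, where 11.2% of all genes were called in either direction and 11.3% lay lower in all null than in all control libraries, as Sox2 did. Its mean was 59.5 ± 7.09 rescaled TPM in null and 95.5 ± 12.2 in control OPCs (SD, n = 3), a difference of -0.67 log2 units (SE 0.15, adjusted p = 0.0109). The sign turned to 1.39 in deposited TPM, and scaling to protein-coding transcripts gave -0.28 (adjusted p = 0.29). The adjusted p was 0.0842 without null clone 3F and 0.054 without 7F. This comparison and the control fall of Sox2 by DIV4 share the control OPC libraries. In deposited TPM Sox2, Sox6 and Hey1 were higher in null OPCs, with 80.7% of all genes.

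At DIV2 and at DIV4 no member was called between genotypes, against 2.68% and 4.57% of all genes, and none passed an unadjusted p under 0.05 in limma's test. Id2 at DIV4 was at 68.0 to 111 in null and 4.57 to 62.4 in control clones, 1.62 log2 units apart (SE 0.84, adjusted p = 0.303), and 0.45 apart without control D7 (SE 0.30, adjusted p = 0.449). It was the 1 member higher in every null than in every control library at DIV4, against 14.4% of all genes.

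Leaving out control clone D7 changed these counts most. Without D7, Id1 (-2.04, adjusted p = 0.0105), Id2 (-1.25, 0.0173), Id3 (-2.03, 0.0298) and Id4 (-1.70, 0.0297) were all lower in null than in control OPCs, with Sox2 the fifth called member, where 17.9% of all genes were called. Id1 stayed lower in null clones at DIV2 (-1.79, adjusted p = 0.0439; 4.76% of genes called) and at DIV4 (-2.48, adjusted p = 0.00672; 7.21% of genes). With all clones the OPC differences of Id1 to Id4 were -1.30, -0.73, -0.68 and -0.84, with adjusted p-values of 0.365, 0.603, 0.786 and 0.626, and in deposited TPM they were -0.36, 1.24, 1.04 and 0.14. The Id genes in OPCs of the remaining control clones D3 and E8 lay above those of all 3 null clones, and D7 lay below them; in deposited TPM D3 and E8 lay above the null clones for Id1 only of these 4. In D3, 1 of these 2 OPC libraries, the proliferation marker Mki67 was low, as given above; its part in the difference was not tested.

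**Figure D4:**
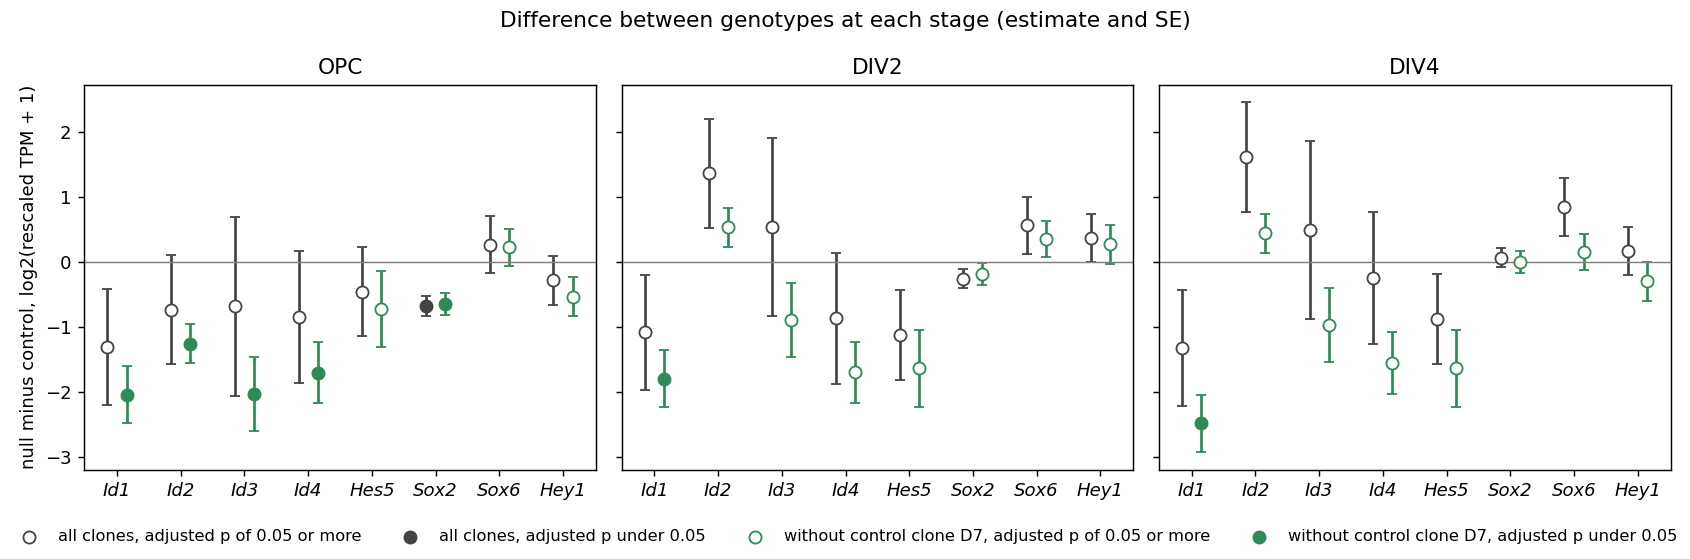
Null minus control difference in log2(rescaled TPM + 1) of the 8 tested members at OPC, DIV2 and DIV4, with standard errors, for all clones and without control clone D7. Without D7 the OPC differences of Id1 to Id4 move further below 0 (with all clones, deposited TPM puts Id2, Id3 and Id4 above 0), and that of Sox2 is below 0 in both (1.39 in deposited TPM with all clones).

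The test of whether a member's course differed between genotypes called none of the 8. Across all genes 0.378% had a different change by DIV2, 2.41% by DIV4 and 0.0241% from DIV2 to DIV4. At an unadjusted p under 0.05 the limma counts were 0, 1 and 0 members. The member was Sox2 by DIV4, with a change 0.75 log2 units higher in null clones (SE 0.21, adjusted p = 0.0745), and -1.50 in deposited TPM. Hes5 had no called difference in its change in rescaled TPM, at -0.66 by DIV2 and -0.41 by DIV4, while deposited TPM gave -2.67 (adjusted p = 0.0452) and -2.46 (adjusted p = 0.0613). In rescaled TPM Id2 had the largest difference of the set, 2.10 (SE 1.18, adjusted p = 0.461) by DIV2 and 2.35 (SE 1.18, adjusted p = 0.295) by DIV4, and -0.01 and 0.19 in deposited TPM, where Hes5 was furthest from 0. With the clone term Id2 was called by DIV4 (adjusted p = 0.0393), with 3.82% of all genes. Without control D7 its difference by DIV4 was 1.70 (SE 0.43, adjusted p = 0.0556).

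Among the factors that ID proteins hold back and the lineage regulators beside them, 3 are given. Myrf, the regulator that switches on myelin genes, rose by 1.83 in control clones by DIV4 (adjusted p = 0.00529). Without D7 the control change was 1.52 (adjusted p = 0.057). Its value in null clones was 0.46 (adjusted p = 0.44). The difference between these changes was not called in rescaled TPM, where 2.41% of all genes were. In OPCs Myrf was at 1.72 ± 0.935 rescaled TPM in control and 3.85 ± 3.24 in null clones (SD, n = 3). Tcf3, an E protein that binds ID proteins, fell by 0.90 in control clones (adjusted p = 0.000125; 1.57 higher in deposited TPM), and its null change was -0.23 (adjusted p = 0.14). In OPCs it was 0.72 log2 units lower in null clones (adjusted p = 0.00152; 1.16 higher in deposited TPM). The change of Tcf3 by DIV4 was 0.67 larger in null clones (adjusted p = 0.0447), but -1.39 in deposited TPM. Olig2 fell by 1.13 in control clones (1.56 higher in deposited TPM) and by 1.23 in null clones.

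Correlations across the 18 libraries are given as a description with no test, since libraries share clones and stages. Pearson's r of log2(rescaled TPM + 1) between the 6 pairs of Id genes was 0.88 for Id3 and Id4, 0.87 for Id1 and Id4, 0.86 for Id2 and Id3, 0.69 for Id2 and Id4, 0.68 for Id1 and Id3 and 0.45 for Id1 and Id2. Between Hey1 and Id2, Id4, Id3 and Id1 it was 0.74, 0.72, 0.69 and 0.56. Hes5 and Hey1, both Notch-responsive, had r = -0.09. The 2 genes most like each member, among those averaging at least 5 rescaled TPM, were Mlc1 (0.94) and Slc1a2 (0.93) for Id1, Mras (0.92) and Spire1 (0.89) for Id2, Ndrg2 (0.88) and Id2 (0.86) for Id3, and Stom (0.96) and Lrig1 (0.93) for Id4. For Hes5 they were Fabp7 (0.94) and Dpysl3 (0.93), for Hey1 Epdr1 (0.90) and Hmox1 (0.90), for Sox6 Rcn1 (0.90) and Maged2 (0.88), and for Sox2 Zfp251 (0.83) and Cops7b (0.82). Mlc1 and Slc1a2 are astrocyte membrane proteins.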

How the data were processed

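Total RNA was sequenced with a stranded kit after ribosomal RNA removal, per the labels. The authors deposited 1 table of TPM for 93666 transcripts in 18 libraries, and the submitters' processing notes name STAR, Picard and mm10; the counting tool and annotation release are not given in the sources used here. TPM keeps no read counts, so depth and detection limits are unknown. Gene names turned into dates (25) were restored, and TPM was summed by gene. Sums were divided by median-of-ratios factors from the 14689 genes above 0 in all 18 libraries. Genes with a mean of at least 1 rescaled TPM (12439) entered limma 3.58.1 (R 4.3.3) on log2(rescaled TPM + 1), with 6 group means, eBayes with a mean trend and Benjamini-Hochberg adjustment within each comparison, called at an adjusted p under 0.05. Fold changes on this scale understate changes of low genes. The script was tested on simulated data.

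The 3 stages of a clone pair by label. Their deviations from the group means correlated at 0.12 on average (range -0.01 to 0.43 over 18 pairs, 9 above 0.1). The mean between clones, -0.06, is tied to this value because each group was centred on its mean, so it is no separate comparison. Alternatives were other scalings (deposited TPM, quantile, protein-coding transcripts, factors from genes of at least 5 TPM), a pseudocount of 0.1, other filters, no trend, only the libraries compared, a clone term, and leaving out each clone or 2 OPC libraries. Named genes were all members, 2 genes with the largest rise and fall per pathway list among those called in control clones by DIV4 with a mean of at least 5 rescaled TPM, and the 2 nearest genes by correlation; Hey2, Smad7, Bmp4 and the marker genes Mki67, Gfap, Slc1a3, Aqp4, Aldoc, Gja1 and Gjb6, which are in the lists, were chosen after their values were seen. The members and lists were chosen with earlier results of these data known. Promoters came from RefSeq (GRCm38.p6), and transcript positions from GENCODE M21, which held 96.6% of transcript names. A listed gene is not reported here, and the counts over its list were left out.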

Additional observations from a re-analysis of the deposited data

Results flagged for a closer look

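The change of Id2 from OPC to DIV2 differed by 2.10 log2 units between genotypes. It stood out because all 3 control clones were lower at DIV2 than at OPC while all 3 null clones were higher. The test of the difference itself gave an adjusted p of 0.461 in limma, and 0.102 with a term for clone, so it did not pass the threshold. In deposited TPM the difference was -0.01.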

How the results depend on the processing

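Set against the analysis reported, 11 changes of single members that were called there or under the alternative turned in sign, all of them in deposited TPM. In control clones these were Hes5 (0.06), Sox2 (2.45), Sox6 (1.58) and Hey1 (1.82) by DIV2 and Id2 (2.24), Hes5 (0.36) and Sox2 (1.93) by DIV4; between genotypes in OPCs they were Sox2 (1.39) and Hey1 (1.11); and in the difference of changes Sox2 by DIV2 (-1.82) and DIV4 (-1.50). Of the others, 1619 kept their side of the threshold, 39 lost a call and 35 gained one.

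Of members called lower in control clones by DIV2 (1 in the analysis reported), 0 were called in deposited TPM, with protein-coding scaling, with no filter, with only the libraries compared and without the D3 OPC library, and 0 to 1 without each clone. By DIV4 (2), 0 were called in deposited TPM, with protein-coding scaling and with only the libraries compared, 1 with a pseudocount of 0.1, with no filter and without the D3 or D6 OPC library, and 1 to 2 without each clone. In null clones by DIV2 (1) the range without each clone was 0 to 1. By DIV4 (1) it was 0 to 1, and the count was 0 in deposited TPM, with no filter and without the D6 OPC library. Between genotypes in OPCs (1) the count was 3 in deposited TPM, 0 with protein-coding scaling and with only the libraries compared, and 0 to 5 without each clone; at DIV2 and at DIV4 (0) it was 0 to 1. For the difference of changes (0), deposited TPM gave 2 by DIV2, and by DIV4 deposited TPM, quantile normalization and factors from genes of at least 5 TPM, chosen after seeing the data, gave 1 each. With clone as a replicate block, pairing the stages, 4 members were called lower in control clones by DIV2, 3 by DIV4 and 1 in the difference by DIV4; the block changed no call of a member beside those given with the results.

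Among all genes, the count called in control clones was 4309 by DIV2 and 3914 by DIV4, against 10785 and 11364 in deposited TPM and 2017 and 200 with only the libraries compared, and 6518 by DIV4 with protein-coding scaling. Between genotypes in OPCs it was 1397, against 10446 in deposited TPM and 276 to 2232 without each clone. The cause of these shifts was not tested beyond the 3 noncoding features. Depth is unknown, so Hes1, Sox5 and Id1, near or under 1 rescaled TPM, have the least certain values.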
